A study of Mus musculus with 12 samples.

Results

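The 9 genes described here encode transcription factors that set or hold the lineage of helper T cells: Tbx21, Eomes, Gata3, Rora, Bcl6, Maf, Prdm1, Irf4 and Ahr. They were chosen by symbol as known lineage factors, and all 9 of them were found among the 55414 gene records of the series and passed the filter on low counts. RNA of splenic CD4+ T cells was sequenced in 12 libraries from male BALB/c mice aged 18 weeks, 3 libraries in each of 4 groups. LIP mice carried a silk ligature around maxillary molars for 14 days to induce periodontitis, and control (CTL) mice were anaesthetised without a ligature. Day 0 cells were taken straight after negative selection with magnetic beads, and day 2 cells after 2 days of culture with IL-2 and antibodies against the T cell receptor β chain and a costimulatory receptor. The costimulatory antibody is anti-CD28 in the study's methods, while the day 2 labels give it as anti-CD28 in the libraries CTL 92 and LIP 90, as anti-CD29 in CTL 93 and LIP 96, and as anti-CD30 in the pair numbered 97. All groups came from the same strain, no transgene or deletion was used, and no further sort by subset was made, so that naive, effector and regulatory CD4+ T cells were measured as a mixture. The day 0 and day 2 libraries of a group carry different numbers in their titles, which the labels do not explain. Nothing in the sources says whether a library was made from a single animal, so p-values measure the spread between these libraries.

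Helper T cells take on distinct fates according to the cytokines they meet, and each fate is held by a lineage factor. T-bet, encoded by Tbx21, drives the interferon-γ producing Th1 fate, and its relative Eomes acts in cytotoxic and memory cells. GATA3 drives the Th2 fate with IL-4, IL-5 and IL-13, while RORα, encoded by Rora, is known from Th17 cells. BCL6 holds the follicular helper (Tfh) fate and is opposed by Blimp-1, the product of Prdm1, whereas c-Maf supports IL-4, IL-10 and IL-21 expression. IRF4 is induced by signals through the T cell receptor and binds DNA together with BATF and AP-1 proteins. AHR is a receptor for small aromatic ligands that pairs with ARNT and is best known in Th17 and regulatory cells.

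In the GRCm39 assembly with the GENCODE annotation the genes are Tbx21 (ENSMUSG00000001444, chr11:96988897-97006158, minus strand), Eomes (ENSMUSG00000032446, chr9:118307280-118315200, plus strand), Gata3 (ENSMUSG00000015619, chr2:9861889-9894845, minus strand), Rora (ENSMUSG00000032238, chr9:68561068-69295528, plus strand), Bcl6 (ENSMUSG00000022508, chr16:23783802-23807602, minus strand), Maf (ENSMUSG00000055435, chr8:116409632-116434579, minus strand), Prdm1 (ENSMUSG00000038151, chr10:44313171-44404497, minus strand), Irf4 (ENSMUSG00000021356, chr13:30933209-30950959, plus strand) and Ahr (ENSMUSG00000019256, chr12:35547973-35585057, minus strand). Each is protein coding. Antisense long non-coding genes share exonic positions with Gata3, Rora, Bcl6, Maf, Eomes and Ahr, and the strand setting of the counting is not given in the sources used here, so reads of such partners cannot be separated from those of the named gene. Gata3un, a long non-coding gene on the same strand as Gata3, also shares exonic positions with it, and strand would not separate their reads. No overlapping gene was listed for Tbx21, Prdm1 or Irf4.

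The total of expected counts per library was 6249018 to 7845676 in CTL and 6279986 to 6625831 in LIP on day 0, and 8993191 to 9842586 in CTL and 8691699 to 12866718 in LIP on day 2. Levels below are CPM (counts scaled to a common library total) after TMM scaling over the 12 libraries, and a count of 3 corresponded to 0.269 to 0.452 CPM. Cd4 lay between 422 and 645 CPM and Cd8a between 0.106 and 2.25 CPM in all libraries. Cd8b1, the other CD8 marker, lay between 3.29 and 11.0 CPM, and was highest in LIP 96 and LIP 97 at 11.0 and 8.81. On the first principal component, which held 79.9% of the variance, day 0 and day 2 separated. On the next, which held 5.46%, LIP 90 lay at 7.17, between the CTL libraries of day 2 at 18.8 to 36.8 and LIP 96 and LIP 97 at -46.9 and -42.8. The 6 B cell marker genes summed to 20.1 CPM in CTL 97, 32.7 in LIP 96 and 30.6 in LIP 97, against 0.896 to 5.42 CPM in the other libraries.

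Start regions were searched for sites of the factors that carry T cell receptor, cytokine and AHR signals. The 250 bases before the start of the canonical transcript, which lies inside the gene's full range in Gata3, Rora and Prdm1, are printed 5′ to 3′ on the gene's strand for Irf4 (chr13:30932959-30933208, plus strand), which changed most, for Ahr (chr12:35585058-35585307, minus strand), on which the groups differed most, and for Bcl6 (chr16:23807603-23807852, minus strand) and Prdm1 (chr10:44334781-44335030, minus strand), an opposed pair. Capitals mark matches to the AP-1 site TGANTCA, the STAT site TTCNNNGAA or an NF-kB pattern of GGG, any 5 bases and CC, searched on both strands and allowed to overlap.
Irf4: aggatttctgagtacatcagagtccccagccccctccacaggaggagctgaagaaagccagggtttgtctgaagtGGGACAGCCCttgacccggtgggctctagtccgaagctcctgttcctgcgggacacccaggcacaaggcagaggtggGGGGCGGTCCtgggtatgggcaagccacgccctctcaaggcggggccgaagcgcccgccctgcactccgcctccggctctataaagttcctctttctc
Ahr: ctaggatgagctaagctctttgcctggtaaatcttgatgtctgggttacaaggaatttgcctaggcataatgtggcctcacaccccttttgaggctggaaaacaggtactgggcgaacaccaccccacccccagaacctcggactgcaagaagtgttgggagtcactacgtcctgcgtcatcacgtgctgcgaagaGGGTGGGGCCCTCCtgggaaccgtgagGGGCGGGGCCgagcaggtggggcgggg
Bcl6: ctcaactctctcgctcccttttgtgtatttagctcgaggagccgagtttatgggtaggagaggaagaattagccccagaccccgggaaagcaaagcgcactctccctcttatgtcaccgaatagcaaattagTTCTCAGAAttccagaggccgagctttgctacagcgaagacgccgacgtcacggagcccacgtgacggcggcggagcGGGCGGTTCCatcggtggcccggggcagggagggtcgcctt
Prdm1: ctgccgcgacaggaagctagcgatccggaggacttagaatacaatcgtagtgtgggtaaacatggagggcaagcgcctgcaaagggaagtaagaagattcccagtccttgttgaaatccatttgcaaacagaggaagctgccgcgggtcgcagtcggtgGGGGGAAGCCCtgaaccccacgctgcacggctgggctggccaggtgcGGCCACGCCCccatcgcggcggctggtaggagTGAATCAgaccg
Of the 9 start regions, only that of Prdm1 held an AP-1 match, 12 bases before the start, and only that of Bcl6 held a STAT match, 118 bases before the start. Over 21614 start regions of protein-coding genes of the same length, 6.19% held the AP-1 site and 7.73% the STAT site. The NF-kB pattern was found in 7 of the 9, with none in Rora and Eomes, against 47.8% of all. Those of Gata3 and Ahr held 4 matches each, some of which overlapped. The core GCGTG bound by AHR with ARNT was found in Prdm1 and Irf4 and in 31.2% of all, and the NFAT core GGAAA in 7 of the 9, with none in Prdm1 and Irf4, against 58.0% of all. These matches are letters in a window, and binding was not measured.

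Per kilobase of exon, Gata3 was the most abundant of the 9 on day 0, at 15.9 ± 1.11 CPM per kb in CTL and 15.1 in LIP (SD, n = 3). Its lowest library, at 14.9 in CTL and 14.1 in LIP, lay above every library of the next gene in that group, Maf, whose mean was 7.63 in CTL and 8.26 in LIP. In CTL each gene from Maf down to Bcl6, at 3.00, overlapped with its neighbour in the order Maf, Irf4, Tbx21, Rora, Prdm1, Bcl6. Ahr at 1.22 and Eomes at 1.10 CPM per kb were lowest there and overlapped with each other. By day 2 the order had changed. Irf4 stood at 353 CPM per kb in CTL and 443 in LIP, followed by Gata3 at 48.6 and 44.6 and Tbx21 at 27.2 and 22.2, with no overlap between these neighbours. Ahr ranked 4 of 9 in CTL at 4.82 CPM per kb, although it overlapped with Prdm1 at 4.23, and ranked 6 in LIP at 1.63, where it overlapped with Maf above it and Rora below it. Eomes was lowest in both groups on day 2, at 0.243 and 0.468 CPM per kb. With the longest transcript in place of the summed exons, Ahr ranked 5 and 8 in these groups. The order in CTL on day 0 also changed with that length, to Gata3, Maf, Rora, Irf4, Bcl6, Tbx21, Prdm1, Ahr and Eomes.

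**Figure D1:**
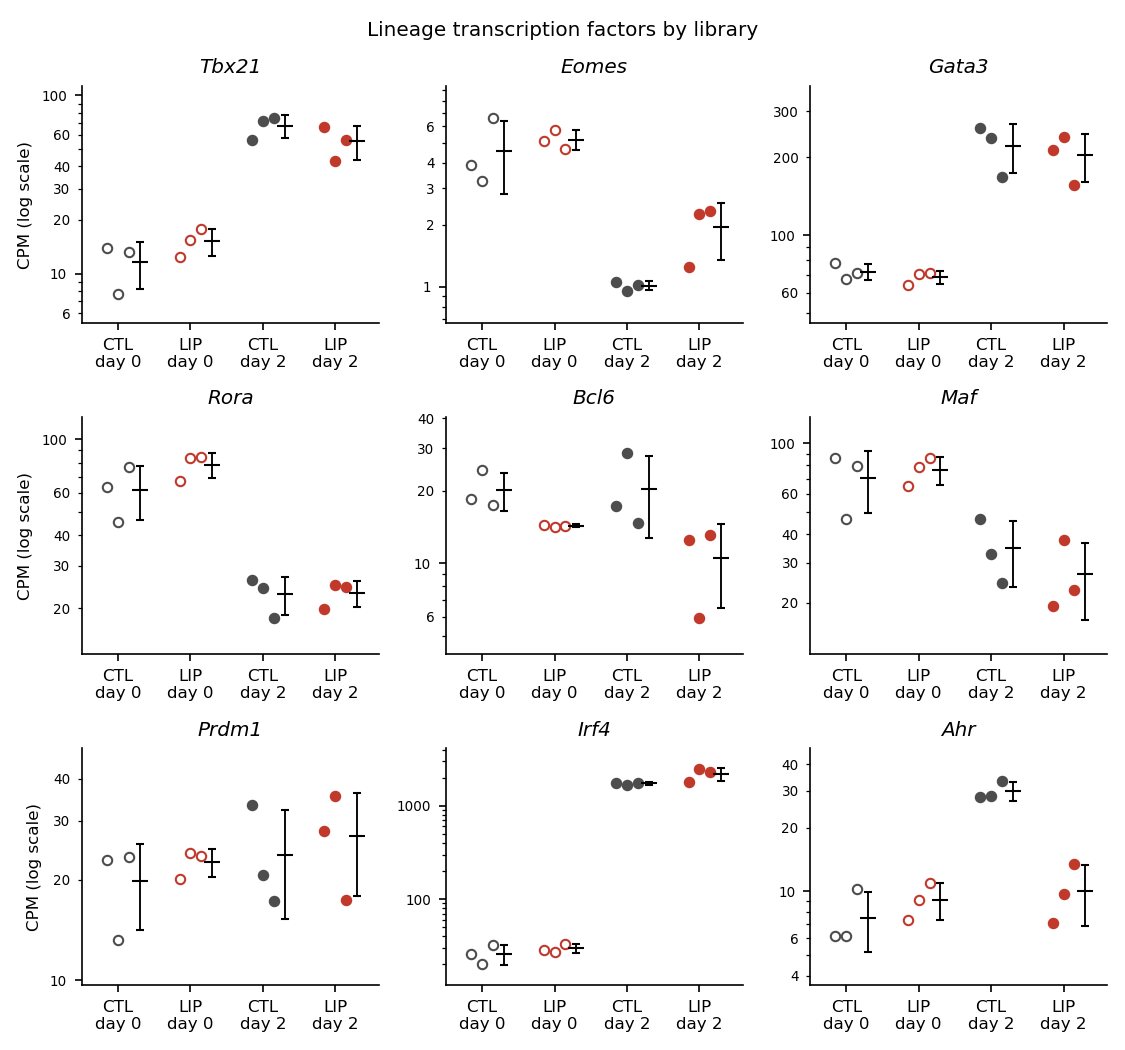
CPM of the 9 genes in each library on a log axis, with open points for day 0, filled points for day 2, grey for CTL and red for LIP, and a bar for the mean ± SD of the 3 libraries of a group. Irf4 stood at 1661 to 2445 CPM in the 6 libraries of day 2, and Ahr at 27.9 to 33.4 CPM in the CTL libraries of day 2 against 7.08 to 13.5 in the LIP libraries.

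The comparison of day 2 with day 0 asks how the factors answered stimulation, and in these data it cannot be told apart from the effect of culture itself, since no unstimulated day 2 cells were sequenced. In CTL, 7 of the 9 genes passed the test, at an adjusted p under 0.05 in edgeR's quasi-likelihood fit of all 12 libraries, where 69.0% of the 15475 genes tested passed. Irf4, Tbx21, Ahr and Gata3 rose (4 of 9, against 35.3% of all genes), and Eomes, Rora and Maf fell (3 of 9, against 33.7%). In LIP, 6 of the 9 passed, against 71.8% of all genes. Irf4, Tbx21 and Gata3 rose (3 of 9, against 36.6%), and Rora, Maf and Eomes fell (3 of 9, against 35.2%). Among so many changes, the share of the factors that passed was near that of all genes, and their median log2 fold change was 0.27 in CTL and 0.13 in LIP beside -0.022 and -0.0028 over all genes. In mixed bulk samples, a change in the number of cells of a type and a change in RNA per cell cannot be told apart.

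**Figure D2:**
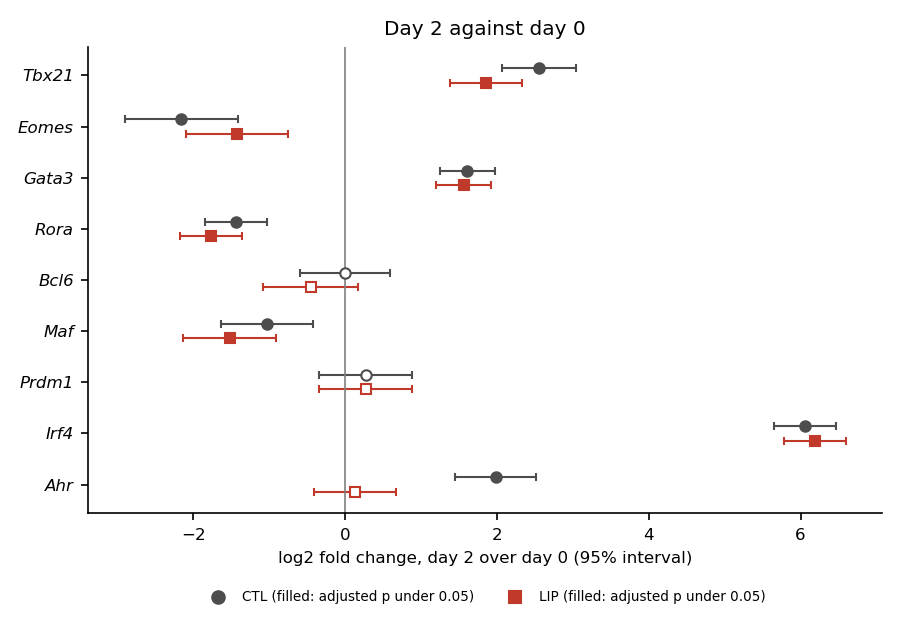
Log2 fold change of day 2 over day 0 for each gene, in CTL (grey circles) and LIP (red squares), with 95% intervals and filled symbols for an adjusted p under 0.05. Ahr is at 1.98 in CTL and 0.13 in LIP, whereas the intervals of the other 8 genes overlap between the groups.

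Irf4 had the steepest change of the 9. On day 0 it lay at 25.8, 20.1 and 32.2 CPM in CTL 88, 89 and 94 and at 28.5, 27.3 and 33.3 CPM in LIP 92, 93 and 94. By day 2 it lay at 1771, 1661 and 1765 CPM in CTL 92, 93 and 97 and at 1799, 2445 and 2276 CPM in LIP 90, 96 and 97. The groups overlapped on day 0, and on day 2 every LIP library lay above every CTL library. The rise was 66.6-fold in CTL (log2 fold change 6.06, SE 0.19, adjusted p = 1.69e-10) and 73.1-fold in LIP (6.19, SE 0.19, adjusted p = 1.29e-10), and only 1.02% and 0.827% of genes had a larger absolute change. Its partner Batf, a basic leucine zipper factor that binds with IRF4, rose in both groups, from 14.4 ± 2.92 to 48.6 ± 5.69 CPM in CTL and from 14.3 ± 4.07 to 59.5 ± 13.0 in LIP (SD, n = 3, log2 fold changes 1.75 and 2.06, adjusted p = 8.76e-06 and 1.71e-06).

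Tbx21 rose with stimulation, and Eomes fell. Tbx21 lay at 13.9, 7.70 and 13.3 CPM in the CTL libraries and 12.4, 15.5 and 17.8 CPM in the LIP libraries of day 0, in the order of libraries given for Irf4. On day 2 it lay at 56.3, 72.1 and 74.4 CPM in CTL and 66.7, 42.7 and 56.2 CPM in LIP. No library of day 0 reached the lowest of day 2, and CTL and LIP overlapped on both days. The log2 fold change was 2.55 (SE 0.23, adjusted p = 3.64e-07) in CTL and 1.86 (SE 0.22, adjusted p = 4.88e-06) in LIP. Eomes was scarce throughout, with 26 to 50 counts per library on day 0 and 8 to 24 on day 2. It lay at 3.92, 3.25 and 6.58 CPM in CTL and 5.10, 5.77 and 4.68 in LIP on day 0, and at 1.06, 0.955 and 1.02 in CTL and 1.25, 2.25 and 2.33 in LIP on day 2. Its fall had a log2 size of -2.16 (SE 0.35, adjusted p = 8.51e-05) in CTL and -1.42 (SE 0.31, adjusted p = 0.00109) in LIP. The 6 NK cell markers, of which Klra8 had 0 counts in all libraries, summed to 13.2 to 31.5 CPM on day 0, to 3.94 to 7.15 in CTL on day 2 and to 14.9 to 32.4 in LIP on day 2. Most of the day 2 sum was Klrk1, which activated T cells also express, while the defining marker Ncr1 lay at 0 to 0.374 CPM on day 2 against 0.963 to 4.94 on day 0. The part of these cells in the Eomes values was not tested.

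The Th1 genes followed no common direction. Of 14 tested, 6 rose and 6 fell in CTL, and 6 rose and 7 fell in LIP. Their medians were -0.13 and -0.25 on the log2 scale. Of all genes tested, 35.3% rose and 33.7% fell in CTL, and 36.6% rose and 35.2% fell in LIP. Ifng, the Th1 cytokine, rose from 3.27 to 28.5 CPM in CTL and from 3.10 to 13.3 in LIP (log2 fold changes 3.15 and 2.11, adjusted p = 3.28e-05 and 0.00108). The IL-12 receptor subunit Il12rb2 rose from 7.25 to 131 CPM in CTL and from 7.29 to 215 in LIP (4.19 and 4.88). The chemokine genes Ccl4 and Ccl3 rose as well, by log2 fold changes of 6.19 and 5.46 in CTL and 4.75 and 4.49 in LIP, from at most 5 counts per library on day 0. Against these, the IL-18 receptor genes Il18r1 and Il18rap fell, by log2 fold changes of -4.60 and -4.47 in CTL and -5.42 and -5.44 in LIP, and Cxcr3, a chemokine receptor of Th1 cells, fell by 1.96 and 2.55 on the log2 scale. Il2rb, a receptor subunit for IL-2 and IL-15 that Eomes is known to regulate, did not pass the test in CTL (0.24, adjusted p = 0.243) or LIP (0.20, adjusted p = 0.334). Gzma, encoding granzyme A, ranged from 0 to 46.2 CPM on day 2 with LIP 96 highest, and did not pass in either group.

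Gata3 rose about 3-fold in both groups. It lay at 77.9, 68.0 and 71.3 CPM in CTL and 64.1, 71.1 and 71.3 CPM in LIP on day 0. On day 2 it lay at 259, 237 and 168 CPM in CTL and 212, 240 and 157 CPM in LIP. CTL and LIP overlapped on both days, and on day 2 the libraries numbered 97 were lowest in each group. The rise was 3.06-fold in CTL (log2 fold change 1.61, SE 0.17, adjusted p = 1.82e-06) and 2.95-fold in LIP (1.56, SE 0.17, adjusted p = 2.19e-06), and the difference of the LIP effect between the days was -0.05 (SE 0.24, adjusted p = 0.95).

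Among the Th2 genes, 7 of 9 tested rose and none fell in CTL, and 6 rose and none fell in LIP. Of all genes tested, 35.3% rose in CTL and 36.6% in LIP. This list, like the others, was chosen with earlier results of these data known. Il4 rose from 0.427 to 8.53 CPM in CTL and from 1.05 to 17.2 in LIP (log2 fold changes 4.36 and 4.02, adjusted p = 2.94e-05 and 9.17e-06). Il13 had a single count in CTL and 0 counts in LIP on day 0, and reached 7.72 to 16.2 CPM in CTL and 7.51 to 11.0 in LIP, which was at least 21.9-fold higher in LIP against a floor of 3 counts per library. Il9 and Il24, with 0 counts in all day 0 libraries, were at least 7.88-fold and 9.39-fold higher in CTL and at least 10.0-fold and 10.4-fold higher in LIP on day 2. With such genes at their bounds, the median of the Th2 genes was 3.23 in CTL and 3.32 in LIP on the log2 scale, and with the fitted values 4.36 and 4.02. Il5 had too few counts to be tested, with 0 to 14 per library.

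Rora fell with stimulation. Its level was 63.6, 45.4 and 76.6 CPM in CTL and 67.4, 83.6 and 84.2 CPM in LIP on day 0, and 26.1, 24.2 and 18.2 CPM in CTL and 19.9, 24.9 and 24.4 CPM in LIP on day 2. Days did not overlap in either group. The log2 fold change was -1.43 (SE 0.19, adjusted p = 1.53e-05) in CTL and -1.77 (SE 0.19, adjusted p = 1.88e-06) in LIP. The Th17 cytokine Il17a had at most 1 count per library on day 0, and on day 2 it had 0 to 3 counts in CTL and 3, 29 and 11 counts in LIP 90, 96 and 97, too few for a test. Il23r, a receptor subunit of Th17 cells, had 3 to 11 counts per library and was not tested. Only 2 of the 10 Th17 genes were tested, and of these the chemokine receptor Ccr6 fell in both groups, from 2.02 to 0.300 CPM in CTL and from 4.52 to 0.122 in LIP (log2 fold changes -2.68 and -4.93, adjusted p = 0.00206 and 1.59e-05), while Il21r did not pass.

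Bcl6 did not pass the test in either group. In CTL it lay at 18.5, 24.3 and 17.5 CPM on day 0 and 17.3, 28.8 and 14.6 CPM on day 2 (log2 fold change 0.0040, SE 0.28, adjusted p = 0.99, 95% interval -0.59 to 0.60). LIP libraries lay at 14.5, 14.1 and 14.3 CPM on day 0, close to each other, and at 12.5, 5.90 and 13.1 CPM on day 2 (log2 fold change -0.45, SE 0.29, adjusted p = 0.176). LIP 96 was lowest. With upper-quartile normalization the LIP value was -0.78 with an adjusted p of 0.026, a scaling that moved the median of all genes from -0.0028 to -0.32. Maf fell in both groups. Its level was 86.0, 46.5 and 79.9 CPM in CTL and 65.0, 78.4 and 86.4 CPM in LIP on day 0, and 46.7, 32.7 and 24.5 CPM in CTL and 19.4, 37.8 and 22.8 CPM in LIP on day 2. CTL 89 of day 0 and CTL 92 of day 2 were nearly level, so that the days overlapped in CTL, which they did not in LIP. The log2 fold changes were -1.03 (SE 0.28, adjusted p = 0.00526) and -1.52 (SE 0.29, adjusted p = 0.000315).

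The Tfh genes divided. In each group 5 of 12 rose and 6 fell, beside the shares of all genes given with the Th1 genes. The surface proteins Pdcd1, Cd200 and Icos and the cytokine Il21 rose, with log2 fold changes of 2.76, 4.57, 2.62 and 4.02 in CTL and 2.17, 3.85, 2.70 and 6.28 in LIP. Il21 varied widely on day 2, at 65.0, 32.0 and 10.7 CPM in CTL 92, 93 and 97 and 47.7, 305 and 56.2 CPM in LIP 90, 96 and 97, with LIP 96 far above the others. Cxcr5, the homing receptor of follicular cells, fell from 10.8 to 2.98 CPM in CTL and from 12.5 to 4.66 in LIP (log2 fold changes -1.86 and -1.45, adjusted p = 0.00267 and 0.00862). LIP 96 also had the highest Cxcr5 of day 2 at 7.12 CPM and was among the 3 libraries with B cell marker RNA named above, whose part in these values was not tested.

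Prdm1, the antagonist of Bcl6, kept a similar range on both days. Its values were 22.9, 13.2 and 23.4 CPM in CTL and 20.1, 24.1 and 23.5 in LIP on day 0, and 33.4, 20.7 and 17.3 in CTL and 28.0, 35.7 and 17.4 in LIP on day 2. All groups overlapped. The log2 fold change was 0.27 in CTL (SE 0.29, 95% interval -0.35 to 0.89, adjusted p = 0.416) and 0.27 in LIP (SE 0.28, -0.34 to 0.88, adjusted p = 0.402). Of the 5 inhibitory genes listed beside it, some of them known targets of Blimp-1 or c-Maf, 4 of 4 tested rose in each group. Over all genes, 35.3% rose in CTL and 36.6% in LIP. Il10, which encodes an anti-inflammatory cytokine, rose from at most 4 counts per library to 12.0 to 42.0 CPM in CTL and 10.1 to 15.9 CPM in LIP (log2 fold changes 5.92 and 6.32), and Lag3 and Tigit, inhibitory receptors, rose by 6.46 and 4.47 in CTL and 6.68 and 4.00 in LIP on that scale.

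**Figure D3:**
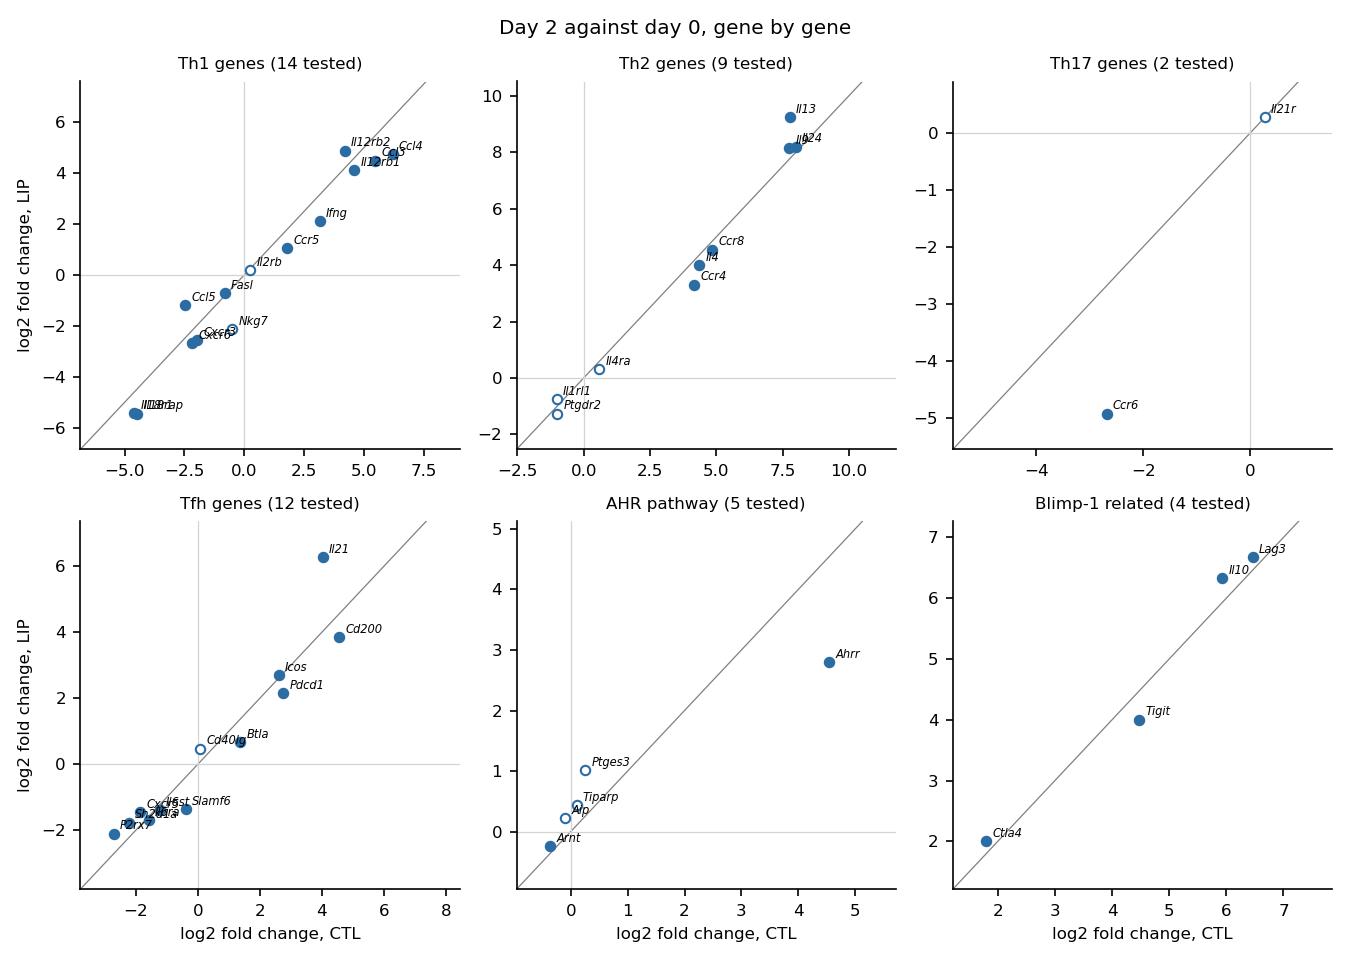
Log2 fold change of day 2 over day 0 in CTL (x axis) against LIP (y axis) for each tested gene of 6 lists, with the line of equal change and filled points for an adjusted p under 0.05 in both groups. Th2 and Blimp-1 related genes that passed lie in the upper right, Th1 and Tfh genes lie on both sides of 0, and the values of Il13, Il9 and Il24 depend on the prior count since a day 0 group held no counts.

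Ahr was the gene of the 9 on which CTL and LIP differed most. On day 0 it lay at 6.18, 6.14 and 10.3 CPM in CTL 88, 89 and 94, from 41, 51 and 78 counts, and at 7.30, 9.15 and 11.0 CPM in LIP 92, 93 and 94, from 53, 65 and 82 counts. On day 2 it lay at 27.9, 28.2 and 33.4 CPM in CTL 92, 93 and 97, from 264, 236 and 294 counts, and at 7.08, 9.74 and 13.5 CPM in LIP 90, 96 and 97, from 79, 104 and 104 counts. All 3 CTL libraries of day 2 lay above every other library, and the LIP libraries of day 2 overlapped with the range of day 0. Ahr rose 3.95-fold in CTL (log2 fold change 1.98, SE 0.25, adjusted p = 8.44e-06), and in LIP its log2 fold change was 0.13 (SE 0.25, 95% interval -0.41 to 0.67, adjusted p = 0.664). On day 2 the LIP libraries were 3.00-fold lower than the CTL libraries (log2 fold change -1.58, SE 0.23, 95% interval -2.11 to -1.05), with an unadjusted p of 9.69e-05 and an adjusted p of 0.0972 in edgeR's fit of the 6 libraries of that day. It ranked 14 of the 14041 genes by p. The difference of the LIP effect between the days was -1.86 (SE 0.35, unadjusted p = 0.000128, adjusted p = 0.074).

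The Ahr result missed the threshold in the main fit and passed it in others. Without LIP 90, which lay apart from LIP 96 and LIP 97, the day 2 difference was -1.36 with an adjusted p of 0.0017, and leaving out each library in turn gave -1.83 to -1.36 with adjusted p from 0.0017 to 0.506, the highest without CTL 93. It also passed with DESeq2 (adjusted p = 1.59e-06), in the fit of all 12 libraries (0.00679) and without the filter on low counts (4.43e-05). These fits called more genes in general, 2014 without LIP 90, 489 with DESeq2, 775 with all 12 libraries and 662 without the filter, against 0. The difference between the days passed without LIP 90 (-1.65, adjusted p = 0.00495), without CTL 94 (-2.16, adjusted p = 0.0353), with DESeq2 (0.000792) and without the filter (1.64e-06). By the antibody named in the day 2 labels, Ahr lay at 7.08 CPM in LIP against 27.9 in CTL for anti-CD28. It lay at 9.74 against 28.2 for anti-CD29 and at 13.5 against 33.4 for anti-CD30. Since every LIP library of day 2 lay below every CTL library, any pairing would have LIP lower. The study's methods name anti-CD28 alone. With the antibody of the labels as a block in edgeR, the Ahr value was -1.61 (SE 0.20, adjusted p = 0.0925). The 6 B cell markers summed to 2.64, 2.75 and 20.1 CPM in CTL 92, 93 and 97 and 0.896, 32.7 and 30.6 CPM in LIP 90, 96 and 97, and their part in the Ahr values was not tested.

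Of 8 further genes of the AHR pathway, 5 were tested. Ahrr, the AHR repressor and a target of AHR, had at most 5 counts per library on day 0 and on day 2 lay at 5.39, 5.25 and 5.79 CPM in CTL and 1.34, 4.21 and 4.40 CPM in LIP. It rose in both groups (log2 fold changes 4.54 and 2.80, adjusted p = 1.87e-05 and 0.000572). On day 2 every LIP library lay below every CTL library in Ahrr, with a difference of -0.75 that did not pass (SE 0.40, adjusted p = 0.39). Ptges3, a co-chaperone of the HSP90 complex that holds AHR in the cytoplasm, was the only gene of all the lists that passed in LIP against CTL, on day 0. It lay at 155, 126 and 159 CPM in CTL and 94.1, 92.2 and 99.9 CPM in LIP (log2 fold change -0.61, SE 0.09, adjusted p = 0.0158). It rose with stimulation in LIP (1.02, adjusted p = 0.000231), to a range that overlapped with CTL, where its change did not pass (0.25, adjusted p = 0.23). On day 2 its difference was 0.13 (SE 0.21, adjusted p = 0.796). Arnt, the partner of AHR, fell a little with stimulation (-0.36 in CTL and -0.24 in LIP, adjusted p = 0.00459 and 0.0375). Tiparp, another AHR target, did not pass in any comparison. Cyp1a1, the classical target, was too scarce to test. Its counts on day 2 were 3, 3 and 20 across the CTL libraries against 9, 4 and 6 across the LIP libraries, and Cyp1b1 had at most 5 counts in any library.

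The comparison of LIP with CTL asks what periodontitis left in splenic helper T cells before and after stimulation. On day 0, none of the 9 genes passed at an adjusted p under 0.05, where 0.427% of 14064 genes did, and DESeq2 also called none. At an unadjusted p under 0.05, Rora and Bcl6 did, 2 of 9 against 13.9% of all genes. In Bcl6 alone the groups did not overlap, 1 of 9 against 19.1% of all genes. Bcl6 was lower in all 3 LIP libraries, at 14.3 ± 0.200 CPM against 20.1 ± 3.68 in CTL (SD, n = 3, log2 fold change -0.49, SE 0.14, unadjusted p = 0.00512, adjusted p = 0.166). Rora was 0.35 higher on the log2 scale (SE 0.16, unadjusted p = 0.0479, adjusted p = 0.356), and CTL 94 at 76.6 CPM lay within the LIP range. Without CTL 94 both passed, Bcl6 at -0.59 (adjusted p = 0.0355) and Rora at 0.54 (adjusted p = 0.0386), in a fit that called 658 of 14343 genes against 60 of 14064 with it. The median over the 9 genes was 0.20 beside 0.0088 over all genes. Gata3 was the most even of them, at -0.07 with a 95% interval of -0.25 to 0.12.

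**Figure D4:**
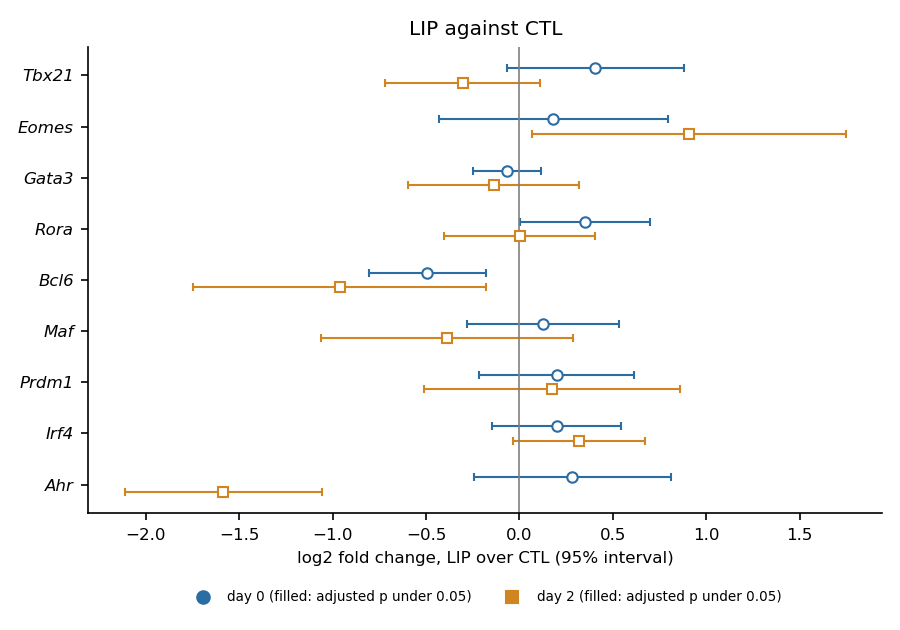
Log2 fold change of LIP over CTL for each gene on day 0 (blue circles) and day 2 (orange squares), with 95% intervals and open symbols since no adjusted p was under 0.05. Ahr on day 2, at -1.58, lies apart from the other values.

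On day 2, where LIP 96 and LIP 97 were read from the counts alone since they match no column of the authors' own table of that day, none of the 9 genes passed, and neither did any of the 14041 genes tested (0%). At an unadjusted p under 0.05, Ahr, Bcl6 and Eomes did, 3 of 9 against 16.5% of all genes. The groups did not overlap in 4 of 9, Ahr and Bcl6 lower and Eomes and Irf4 higher in LIP, against 21.5% of all genes. Bcl6 averaged 10.5 ± 4.00 CPM in LIP against 20.3 ± 7.51 in CTL (SD, n = 3, log2 fold change -0.96, SE 0.34, adjusted p = 0.226), and was thus lower in every LIP library on both days. Eomes averaged 1.94 ± 0.599 CPM against 1.01 ± 0.0515 (0.91, SE 0.37, adjusted p = 0.274). The summed NK markers, mostly Klrk1, and Eomes were both higher in LIP on this day, as given above. Irf4 averaged 2173 ± 335 CPM against 1732 ± 61.5 (0.32, SE 0.15, adjusted p = 0.348). Without LIP 90, whose 1799 CPM lay next to the CTL libraries, the Irf4 difference was 0.46 with an adjusted p of 0.0265, in a fit that called 2014 of 14453 genes. The LIP libraries kept in it, LIP 96 and LIP 97, are those with B cell marker sums of 32.7 and 30.6 CPM, against 0.896 in LIP 90, and the part of B cells in the Irf4 values was not tested. DESeq2 called Ahr alone of the 9, and 489 of the 14041 genes. Tbx21 (-0.30, 95% interval -0.72 to 0.11), Gata3 (-0.14, -0.59 to 0.32), Rora (0.00070, -0.40 to 0.40), Maf (-0.39, -1.06 to 0.29) and Prdm1 (0.18, -0.51 to 0.86) overlapped between the groups. The median over the 9 was -0.14 beside -0.0058 over all genes.

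For the difference of the LIP effect between the days, none of the 9 passed, against 0.0517% of 15475 genes. Ahr and Tbx21 had an unadjusted p under 0.05, 2 of 9 against 15.9% of all genes. Tbx21 was 0.41 higher in LIP on day 0 and 0.30 lower on day 2, a difference of -0.69 (SE 0.31, unadjusted p = 0.0442, adjusted p = 0.298). DESeq2 called Ahr alone of the 9, and 531 of the 15475 genes.

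The helper lineage factors beyond the 9 moved in both directions. Of 24 tested among 27 listed, 11 rose and 7 fell in CTL, and 13 rose and 7 fell in LIP, with medians of 0.42 and 0.46 on the log2 scale. Nfil3, a basic leucine zipper factor, rose from 2.06 to 74.2 CPM in CTL and from 2.56 to 131 in LIP (log2 fold changes 5.15 and 5.67), Gfi1, a repressor known from Th2 cells, from 9.52 to 147 and from 12.0 to 165 CPM (3.96 and 3.77), and Bhlhe40, which supports cytokine production, from 14.9 to 155 and from 15.1 to 234 CPM (3.39 and 3.95). Batf3, a relative of Batf, also rose, from 0 counts in CTL and 2 in LIP on day 0 to no more than 23 counts in a library. Foxp3, the factor of regulatory T cells, fell from 57.4 ± 9.23 to 40.0 ± 3.50 CPM in CTL and from 64.1 ± 7.74 to 29.7 ± 1.96 CPM in LIP (SD, n = 3, log2 fold changes -0.52 and -1.11, adjusted p = 0.00342 and 6.52e-06). Of the 7 STAT genes, the signal carriers of cytokine receptors, 4 rose and none fell in each group. Beside both lists, 35.3% of all genes rose in CTL and 36.6% in LIP. Stat5a, which carries the IL-2 signal, rose from 141 to 383 CPM in CTL and from 140 to 345 CPM in LIP, and Stat2 from 52.6 to 93.9 and from 56.3 to 226 CPM.

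Libraries of the same group also differed, in a way that some of the 9 genes shared. The deviation of each library from its group's mean log2 CPM was compared between genes over the 12 libraries, which share depth and scaling, as a description. Gata3 and Prdm1, Maf and Prdm1, and Rora and Maf each had a Pearson's r of 0.84 between their deviations, and Eomes and Irf4 had 0.81. These were the highest of the pairs. Others were near 0, such as Tbx21 and Maf at 0.04, or negative, down to -0.54 for Bcl6 and Irf4. On day 0, CTL 89 was lowest of its group in every gene of the 9 except Bcl6, in which it was highest. On day 2, CTL 92 and LIP 96 were highest of their groups in Gata3, Maf and Prdm1, and CTL 97 and LIP 97 were lowest of theirs in Gata3 and Prdm1. Bcl6 was lowest of all libraries in LIP 96.

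**Figure D5:**
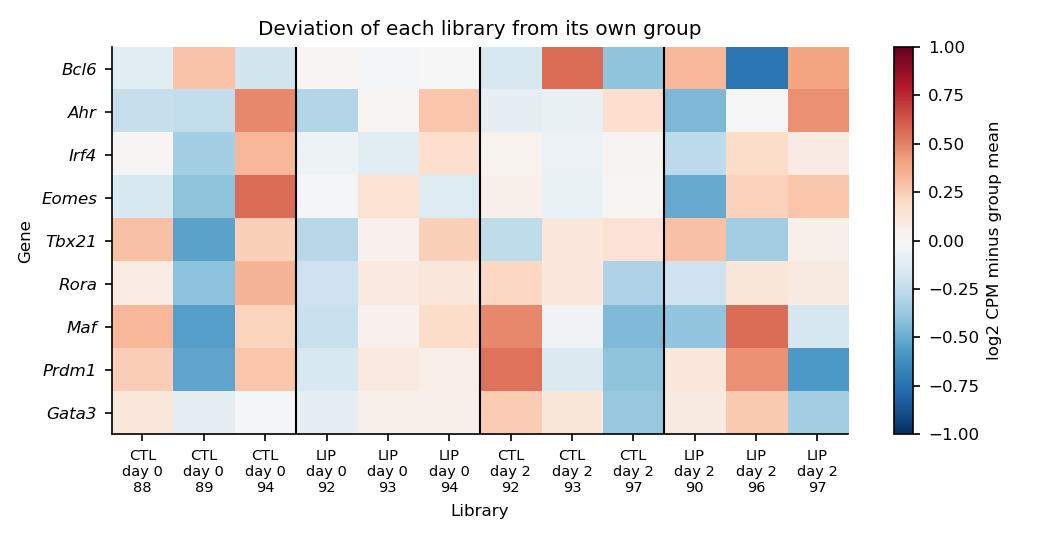
Log2 CPM of each gene (rows) in each library (columns) minus the mean of that library's own group, from blue (below) to red (above), with lines between the groups. CTL 89 is below its group in all genes but Bcl6. Gata3, Maf and Prdm1 deviate in the same direction in most libraries of day 2, but not in all of them.

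The genes whose log2 CPM ran closest to each factor over the 12 libraries were mostly genes that separated day 0 from day 2. For Irf4 they were Ptpn3, Prr11 and Bcat1, each with a Pearson's r above 0.99, and for Tbx21 they were Troap, Ccdc50 and Arhgap21 at 0.99. For Rora, Ahnak had the highest r at 0.99. Ahr had lower values, with Tns1 at 0.93 and Dok6 at 0.91, and Prdm1 had the lowest, with Atp2b4 at 0.86. In deviations from the group means, Nr2f6 ran closest to Ahr at 0.94, Serinc3 to Irf4 at 0.96 and Glrx to Prdm1 at 0.96. The values before the means are removed include the differences between the groups, and no relation between these genes was tested.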

How the data were processed

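Splenic CD4+ T cells of CTL and LIP mice on day 0 and day 2 were sequenced in 12 libraries after rRNA depletion with a directional kit. The authors trimmed reads (FastQC 0.11.9, Trimmomatic 0.38 per the labels), used the GRCm39 build and deposited expected counts per gene from RSEM 1.3.0 with Bowtie2. The annotation release and strand setting are not given in the sources used here. The authors also deposited a signal table of normalized CPM per library for each day, with log2 fold changes, p-values and false discovery rates of their own comparisons, which were not used. In the 10 labelled columns of that signal 100% of genes with at least 10 counts lay within 5% of a constant ratio to the counts. In the day 2 table, LIP 90 is the labelled LIP library that a column matches. Its other 2 LIP columns, numbered 88 and 89, match no labelled sample and were not used, so LIP 96 and LIP 97 rest on the counts.

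Libraries were grouped by their labels. Expected counts were rounded to whole numbers and tested with edgeR 4.0.16 under R 4.3.3 (filterByExpr, TMM, glmQLFit and glmQLFTest, two-sided, Benjamini-Hochberg adjustment over all genes tested), with the 6 libraries of a day for LIP against CTL and all 12 for the comparisons of days and for the difference of the LIP effect between days. A gene was called at an adjusted p under 0.05. Log2 CPM used a prior count of 2. SE was the absolute log2 fold change over the square root of F. Alternatives were DESeq2 1.42.0, other normalizations and filters, another sample set and leaving out each library; the antibody named in the labels as a block was added after seeing the data. Tests were first run on simulated data. Symbols came from the deposited tables for 15174 records and otherwise from GENCODE M39, which also gave positions and start sites. Library totals of 6249018 to 12866718 counts left genes with a few counts per library untested.

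The 9 genes and all lists were chosen with earlier results of these data known. The genes named are the 9, their hallmark genes, the 3 largest called changes per list shared by both groups, every list gene called for LIP, and the 3 most similar genes. Some genes that this rule names are not reported here. Figures were drawn with Python 3.11.15 and matplotlib 3.10.9.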

Additional observations from a re-analysis of the deposited data

How the results depend on the processing

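No called log2 fold change of the 9 factors reversed or lost its call where it was tested. With at least 10 counts in every library Eomes was not tested on day 2 or between days, which left 6 of 8 called in CTL and 5 of 8 in LIP. Values of Ahr, Bcl6, Rora and Irf4 that were not called in the reported fit were called in 15 combinations of value and setting. The counts of called genes between day 2 and day 0 stayed within 1.5 times of the main counts, but upper-quartile normalization moved the median log2 fold change of all genes from -0.022 to -0.31 in CTL and from -0.0028 to -0.32 in LIP, and the split from 5456 higher and 5220 lower to 4259 and 6827 in CTL and from 5665 and 5446 to 4293 and 7084 in LIP. For LIP against CTL the number of genes called was unstable. On day 0 it was 60, and 206 with DESeq2, 12 in the fit of all 12 libraries, 645 without the filter on low counts and 13 to 658 without 1 library, the highest without CTL 94. On day 2 it was 0, and 489, 775 and 662 under those settings, 1 with at least 10 counts in every library, and 0 to 2014 without 1 library, the highest without LIP 90. For the difference between the days it was 8, and 531 with DESeq2, 815 without the filter and 1 to 1596 without 1 library, the highest without LIP 90. Of the 9 factors, 2 were called on day 0 without the filter and 0 to 2 without 1 library. On day 2, DESeq2 and the fit of all 12 libraries called 1, the unfiltered fit 2, and leaving out 1 library 0 to 2. For the difference between the days, DESeq2 and the unfiltered fit called 1, and leaving out 1 library 0 to 1. By the numbers in the titles, no paired analysis was possible because the groups compared shared at most 1 of them, whose meaning the labels do not give. With the antibody named in the labels as a block, which pairs each CTL with a LIP library of day 2, no call of the 9 factors changed. Counts of 8 to 24 per library limited Eomes on day 2.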

Other observations

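Among the listed genes, some are given here for their LIP differences, none of which passed the adjusted threshold, and Ccl5 and Ikzf2 were chosen after their values were seen. Stat2, which carries type I interferon signals, averaged 226 ± 53.0 CPM in LIP and 93.9 ± 27.3 in CTL on day 2 (SD, n = 3, log2 fold change 1.26, SE 0.24, edgeR adjusted p = 0.108), with every LIP library above every CTL library. Ccl5, a chemokine of effector T and NK cells, averaged 11.5 ± 4.27 against 3.26 ± 1.21 CPM (1.79, SE 0.35, adjusted p = 0.114). The 6 NK cell markers also summed higher in LIP on day 2, to 14.9 to 32.4 CPM against 3.94 to 7.15. Most of that sum was Klrk1, which activated T cells also express, at 10.6 to 30.6 CPM in LIP and 3.70 to 6.02 in CTL. Ncr1 had at most 4 counts in a library of day 2. The part of NK cells in the Ccl5 values was not tested. Ifng (-1.10, adjusted p = 0.248) and the cytotoxic granule gene Nkg7 (-1.19, adjusted p = 0.208), chosen after its values were seen, had lower values in LIP. Ikzf2, encoding Helios of regulatory T cells, was 0.49 higher in LIP on day 0 (SE 0.14, adjusted p = 0.162) and 0.46 lower on day 2 (SE 0.12, adjusted p = 0.15), with no overlap between the groups on either day. Foxp3 was 0.44 lower in LIP on day 2 (SE 0.12, adjusted p = 0.168), with no overlap. Over all genes tested, the groups did not overlap in 19.1% on day 0 and 21.5% on day 2. Other listed genes lay nearer the threshold, such as Slamf6, 0.41 higher in LIP on day 0 (SE 0.09, edgeR adjusted p = 0.0731).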
